A study of Mus musculus with 2 samples.

Results

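The 10 genes Apoa1, Apoa2, Apoa4, Apoa5, Apob, Apoc3, Apoe, Apoh, Ttr and Rbp4 encode secreted carriers of lipids, retinol and thyroid hormone. They were taken as a named group, out of 21884 protein-coding genes of the GENCODE vM21 annotation with a unique name. For each gene, every DNase-seq peak and footprint in the gene body or within 50 kb of any annotated transcript start was collected. Peaks of the replicates that overlapped by at least 1 bp were merged into regions. This gave 73 regions around the 10 genes, of 99252 in the genome. A region with a peak of each replicate is called shared.

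DNase-seq maps accessible chromatin by sequencing the ends that the nuclease DNase I leaves where DNA is not protected. Here it had been run on embryonic mouse liver at 13.5 days, in 2 biological replicates that form a single group, with no second condition. Both replicates have the strain label C57BL/6N,129, with wild type and the A85 YAC in multiple copies as the genotype, and share 1 donor label; sex had not been collected. The insert of the YAC is not named in the labels; mouse-like sequence in it would add to the counts of the corresponding mouse locus.

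Apolipoproteins wrap the lipid of plasma lipoproteins, keep it soluble and act as ligands for receptors and cofactors for enzymes. Hepatocytes secrete most of them, and also retinol-binding protein (Rbp4), which leaves the liver in a complex with transthyretin (Ttr). The fetal liver is at this stage also the main site of blood formation, so that hepatoblasts share the organ with a large population of maturing red cells.

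Each peak carries the authors' signal value, whose normalization is not stated. All values of a library are whole multiples of 1 step, 0.0127 in replicate 1 and 0.00604 in replicate 2, within a tolerance of 0.05 of a step. Dividing by the step gives a count per peak, with medians of 69 and 126. The counts stand behind the 95% Poisson intervals given below, which cover counting error only. The longer of 2 deposited peak lists was used, with 76130 peaks in replicate 1 and 73852 in replicate 2. The smaller step of replicate 2 puts more counts behind the same value there. Erythroid marker promoters were shared for 5 of 5 genes (Gata1, Klf1, Tal1, Slc4a1, Epor). Hepatoblast marker promoters were shared for 2 of 6, Afp and Trf. Alb had a peak in replicate 1 alone, Ahsg in replicate 2 alone, and Serpina1a and Dlk1 in neither. Foxa3 and Hnf4a, also hepatoblast markers, were counted with the liver transcription regulators. Foxa3 had a shared promoter region and Hnf4a a peak in replicate 2 alone. Promoters of macrophage markers were shared for 0 of 4, of endothelial markers for 1 of 4, of gut endoderm markers for 0 of 3 and of stellate cell markers for 2 of 3. In such bulk tissue, fewer cells of a type and less accessibility per cell cannot be told apart.

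The sequences under the shared regions are shown first, because they show what the accessible DNA at these genes consists of. Of the 73 regions, 22 lay nearer to a transcript start of a member than to that of any other gene, and 8 of these 22 were shared. They belonged to Apoa1, Apob, Apoh, Rbp4 and Ttr. The following stretches are from build mm10 (GRCm38), on the strand of the gene, 5′ to 3′. Capitals mark bases that lay in a footprint of replicate 1 and in one of replicate 2, a footprint being a short stretch that the authors called as protected from the nuclease within accessible DNA. The Apoh stretch is an intron region at chr11:108378181-108378400, the Apob stretch an intron region at chr12:7978581-7978800, the Apoa1 stretch coding sequence of an exon at chr9:46229941-46230220. The Rbp4 stretch runs from chr19:38124829 to 38125068 on the minus strand, upstream of an internal start.
Apoh intron: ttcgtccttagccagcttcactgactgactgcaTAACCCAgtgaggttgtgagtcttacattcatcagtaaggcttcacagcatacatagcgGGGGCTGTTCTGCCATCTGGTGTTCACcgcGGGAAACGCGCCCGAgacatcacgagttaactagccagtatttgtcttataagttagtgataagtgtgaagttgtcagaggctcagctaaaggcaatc
Apob intron: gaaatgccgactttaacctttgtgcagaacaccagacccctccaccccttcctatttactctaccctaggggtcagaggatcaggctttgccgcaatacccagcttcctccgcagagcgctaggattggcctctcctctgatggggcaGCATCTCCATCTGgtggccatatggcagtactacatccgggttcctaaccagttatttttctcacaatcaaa
Apoa1 coding exon: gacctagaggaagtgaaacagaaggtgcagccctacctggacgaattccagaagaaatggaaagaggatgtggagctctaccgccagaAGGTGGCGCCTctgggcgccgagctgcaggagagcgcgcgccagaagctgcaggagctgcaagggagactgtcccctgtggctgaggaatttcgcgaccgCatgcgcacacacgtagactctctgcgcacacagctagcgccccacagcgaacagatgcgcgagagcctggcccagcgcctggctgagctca
Rbp4 upstream of an internal start: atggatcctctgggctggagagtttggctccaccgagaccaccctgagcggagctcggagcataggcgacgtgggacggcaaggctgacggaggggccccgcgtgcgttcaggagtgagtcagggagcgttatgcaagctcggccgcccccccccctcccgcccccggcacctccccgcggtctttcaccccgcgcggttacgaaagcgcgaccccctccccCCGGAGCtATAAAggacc

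In the Apoh and Apob introns the footprint bases of both replicates contained the same 6 letters CATCTG, followed by GTG. At Rbp4 they covered 5 of the letters TATAAA, close to the 3′ end of the printed stretch. In the Apoa1 exon they covered AGGTGGCGCCT.

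The other shared regions of Apob are shown because they held footprints of replicate 2 that no footprint of replicate 1 overlapped. In both stretches, capitals mark footprint bases of replicate 2. The first lies just upstream of the earliest annotated start, at chr12:7977421-7977628, and the second between genes beyond the 3′ end of Apob, at chr12:8059661-8059860, both on the strand of the gene.
Apob upstream: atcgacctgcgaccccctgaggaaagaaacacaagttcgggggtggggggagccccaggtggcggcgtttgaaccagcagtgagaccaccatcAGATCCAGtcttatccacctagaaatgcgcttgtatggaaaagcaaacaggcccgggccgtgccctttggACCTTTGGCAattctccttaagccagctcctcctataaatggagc
Apob distal: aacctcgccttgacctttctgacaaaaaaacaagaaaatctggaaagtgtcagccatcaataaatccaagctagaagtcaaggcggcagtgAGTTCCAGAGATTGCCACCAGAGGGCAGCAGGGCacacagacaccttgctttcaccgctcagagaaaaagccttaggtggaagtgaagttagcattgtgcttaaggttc

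The upstream stretch of Apob, the structural protein of very-low-density and low-density lipoproteins, held a footprint of replicate 2 over ACCTTTGGCA and ended in an unmarked TATAAA. The distal stretch held 1 footprint of replicate 2 of 34 bp around the letters CACCAGAGG.

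The following short motifs were searched on both strands in the central 200 bases of each region, and each share is that of all 45831 shared regions. None of the 8 regions held CAAAGTCCA for HNF4 (0.240%), TCAAGGTCA for LRH-1 (0.214%), TGTTTAC for FOXA (2.06%) or AGATAA for GATA factors (11.1%). None held CCGGAAG for ETS factors (5.94%) or AGGGGGC, a part of the CTCF site (13.5%). TTGCNNAA for C/EBP was matched at the Apob start, within 5 bp of a footprint of replicate 2, and in the Rbp4 region, outside the footprints (6.42%). The Apob distal region held AGGTCA for nuclear receptors (9.90%) and TATTGAT for HNF6 (0.585%), both outside the footprints. TATAAA, the TATA box, was matched at the starts of Apob and Rbp4 (4.24%). The Rbp4 region also held CCNCNCCC for KLF factors (40.7%), the overlapping GGGCGG for SP1 (30.2%), and, outside the footprints, TGANTCA for AP-1 (5.47%). CCAAT for NF-Y was matched in the Apob intron (23.3%), and GCGCATGC for NRF1 in the Apoa1 exon (2.06%).

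CAGATG, the letters of an E-box that TAL1 can bind, was matched in the introns of Apob and Apoh, on the minus strand, in a footprint of both replicates each time; 13.3% of all shared regions hold it. Both matches lie inside a match to CANCAGNNG, letters of the core of the CTCF site, so that the motifs cannot be told apart there. CANCAGNNG and TGATAA, a further form of the GATA site, were added after these sequences had been seen. CANCAGNNG was matched in 5 of the 8 regions, against 26.3% of all shared regions, and in 2 of them within 5 bp of a footprint overlapped in both replicates. TGATAA was matched in the Apoh intron alone, outside the footprints (7.47% of all shared regions). A match describes letters and not a bound factor.

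Promoter accessibility of the members came next, with a promoter taken as the bases within 1 kb of a start. Of the 10 genes, 3 had a shared promoter region, Apob, Apoh and Rbp4 (Wilson 95% interval 10.8 to 60.3%), against 58.4% of all protein-coding genes. Replicate 1 had a promoter peak at the same 3 genes, against 60.7% of all genes. Replicate 2 had one at 6 genes, adding Apoa1, Apoe and Ttr, against 65.3% of all genes. These 3 of 10 with a peak in replicate 2 and none in replicate 1 compare with 6.42% of all genes. Apoa2, Apoa4, Apoa5 and Apoc3 had no promoter peak in either replicate. The plot of promoter peaks shows that, apart from the region next to Prkca described below, their values lay between 0.316 and 1.05. Shared promoter regions of all genes had medians of 5.95 and 5.04.

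**Figure D1:**
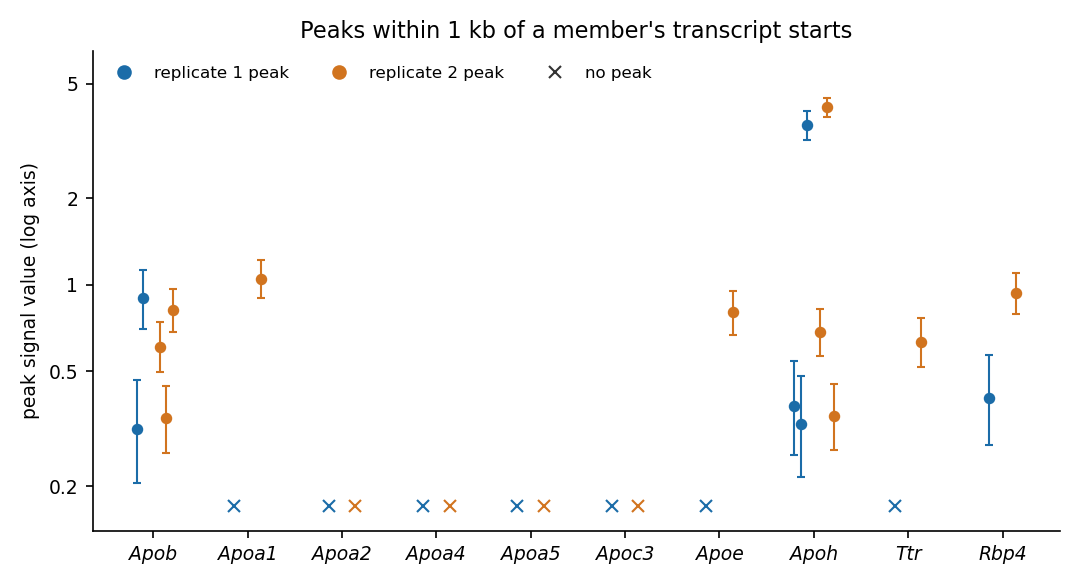
Signal values (log axis) of all peaks within 1 kb of a transcript start of each member, in replicate 1 (blue) and replicate 2 (orange), with 95% Poisson intervals of the recovered counts. Crosses stand for no peak; 4 genes have none in either replicate, and 3 have a peak in replicate 2 alone.

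Most members have promoters poor in CpG. The observed over expected CpG ratio within 500 bp of the 5′ end had a median of 0.24 over the members and 0.55 over all genes. It was under 0.4 for 8 members, all but Apoh (0.74) and Rbp4 (0.76). Among all genes under 0.4, 19.7% had a shared promoter region and 25.2% had a promoter peak of replicate 2. Of the 8 members, 1 (Apob) had a shared promoter region and 4 (Apob, Apoa1, Apoe, Ttr) had a peak of replicate 2. The limit of 0.4 was chosen after the data had been seen.

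Apob lies at chr12:7977648-8016835 on the plus strand. The region across its start had a value of 0.316 in replicate 1, with an interval of 0.205 to 0.467. In replicate 2 it had 0.610 (0.497 to 0.741). The intron region, 802 bp downstream of a start, had 0.899 (0.702 to 1.13) and 0.815 (0.683 to 0.965). The start had the lower value of the pair in both replicates, with overlapping intervals in replicate 2. A further peak between them was found in replicate 2 alone, at 0.344. The distal region lay 47302 bp from the nearest Apob start and had 0.443 (0.309 to 0.616) and 0.905 (0.766 to 1.06). That start is an internal one of GENCODE, 34711 bp from the 5′ end, which RefSeq lacks. The region's centre lay 82112 bp from the 5′ end, so that it came within 50 kb through the internal start alone. Relative to all shared regions, the start of Apob ranked at percentile 1.65 in replicate 1 and 18.4 in replicate 2. The intron region ranked at 29.9 and 31.3.

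Apoa1 and Apoa2 encode the main proteins of high-density lipoprotein. Apoa1 lies at chr9:46228580-46230466, and its start held a peak of 1.05 in replicate 2 (0.900 to 1.22), the highest of the promoter peaks found in replicate 2 alone. Replicate 1 had no peak there. The coding exon region of Apoa1, 1220 bp downstream of a start, was shared, with 1.73 (1.46 to 2.05) and 1.43 (1.25 to 1.62), the highest values among the members' own shared regions in replicate 1. In replicate 1, accessibility of Apoa1 was thus called within the gene and not at its start. Apoa2, at chr1:171225054-171226379, had a single own region, a peak of replicate 2 at 0.573, 1024 bp from a start and so just outside the promoter window. The RefSeq annotation adds an Apoa2 start upstream, at -3490 bp from the 5′ end, which has within 1 kb the Tomm40l promoter region with values of 8.58 and 3.89.

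Apoa4, Apoa5 and Apoc3 lie in 1 cluster with Apoa1 on chromosome 9 and take part in the control of plasma triglyceride, with Apoa5 favouring and Apoc3 slowing its clearance. None of the 3 genes had a shared region of its own. Own regions without a replicate were a peak of replicate 1 at 0.646 (0.481 to 0.849), 6235 bp from the Apoa4 start, and a peak of replicate 1 at 0.532 (0.383 to 0.719), 10812 bp from an Apoa5 start. Because the genes are close together, the shared Apoa1 exon region also falls within 50 kb of all 3, and it was counted once. The strong peaks on this stretch stood at the neighbours Bud13, with 8.42 and 8.38, and Zpr1, with 5.40 and 4.16.

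Apoe, at chr7:19696109-19699188 on the minus strand, encodes a ligand of lipoprotein receptors. Its start held a peak of 0.803 in replicate 2 (0.672 to 0.951) and none in replicate 1. A shared region upstream, at chr7:19700986-19701347, had 1.28 and 1.09. It lay 1798 bp from an Apoe start and 1793 bp from a Tomm40 start, so that its assignment to Tomm40 rests on 5 bp. Measured from 5′ ends alone, the region was Apoe's, and 6 rather than 5 members had an own shared region. A RefSeq transcript of Apoe starts within it. The Tomm40 promoter, 16253 bp from Apoe, had the highest replicate 1 value around any member, with 17.7 and 10.7. Apoc1, Apoc2 and Apoc4 of the same cluster had no shared promoter region, and Apoc1 had a peak of replicate 2 alone at 0.724.

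Apoh encodes beta-2-glycoprotein I, a plasma protein that binds anionic phospholipids. GENCODE gives it a long transcript whose start, at chr11:108343354, lies beside the promoter of Prkca, a protein kinase gene. The shared region at 3.58 and 4.13 that makes Apoh the strongest member promoter overlaps a Prkca start and lies 507 bp from this Apoh start. A weaker shared region 14 bp from it had 0.380 (0.256 to 0.542) and 0.688 (0.568 to 0.827). At the downstream start, 51943 bp away and the earlier of those that RefSeq gives, only replicate 2 had a peak, at 0.350 (0.266 to 0.453). The intron region with the CATCTG footprint lay 2764 bp from an Apoh start and had 1.67 (1.40 to 1.98) and 1.47 (1.29 to 1.67). It is an intron by the GENCODE annotation and lies upstream of the Apoh starts that RefSeq gives. With RefSeq starts in place of GENCODE starts, Apoh had no shared promoter region. The count was then 4 of 10, Apoa2, Apob, Apoe and Rbp4, while the share of all genes was taken with GENCODE starts alone.

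Ttr, at chr18:20665280-20674321, encodes the carrier of thyroxine and of the Rbp4 complex. The gene held a peak of replicate 2 at 0.634 (0.518 to 0.767), 61 bp downstream of its start, and no peak of replicate 1. The only shared region of Ttr stood 25060 bp upstream, between genes, with 0.519 (0.372 to 0.704) and 0.682 (0.562 to 0.820). A peak of replicate 1 alone at 0.456 lay 36689 bp downstream of the Ttr start, in an intron of B4galt6.

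Rbp4, at chr19:38116629-38125281 on the minus strand, carries retinol from the liver to other tissues. Its shared promoter region had 0.405 (0.277 to 0.572) in replicate 1 and 0.936 (0.794 to 1.10) in replicate 2. It held 1 footprint in replicate 1 and 7 in replicate 2, and the one of replicate 1 was overlapped at the TATAAA letters shown above. No other own region was found within 50 kb, the fewest of any gene with a shared region.

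The false discovery rate (FDR) that the authors gave per stretch of bases, deposited only where under 0.05, needs no peak call. The lowest FDR within 1 kb of a start was under 0.001 in both replicates for 2 of 10 members, Apob and Apoh, against 55.0% of all genes. At Apoh the lowest FDR was reached in the region that overlaps a Prkca start. The shared region 14 bp from the Apoh start had 0.0059 in replicate 1 and 2.0e-05 in replicate 2. In replicate 2 by itself the same 6 members passed that had a peak there, against 60.3% of all genes. For Apoa1 the lowest FDR was 0.031 in replicate 1 and 1.4e-05 in replicate 2. Ttr had no listed base in replicate 1 and 4.2e-05 in replicate 2, and Apoe had none in replicate 1 and 0.00078 in replicate 2. Rbp4 had 0.0084 and 2.3e-06. Apoa4, Apoa5 and Apoc3 had no listed base within 1 kb of a start in either replicate, and Apoa2 had 0.034 in replicate 2 alone.

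Around all members together, 32 of the 73 regions were shared (43.8%, Wilson 95% interval 33.0 to 55.2%), against 46.2% of all regions. Of the others, 21 were found in replicate 1 alone and 20 in replicate 2 alone. Regions nearest to a start of another gene made up 51 of the 73 and 24 of the 32 shared ones. The map of regions by distance shows that the large peaks near the members belong to such neighbours, among them Tomm40, B4galt3 and Clptm1. Shared regions of the members themselves had medians of 0.481 and 0.860, with ranges of 0.316 to 1.73 and 0.610 to 1.47. Shared regions of the neighbours had medians of 2.61 and 1.21, and all shared regions 1.44 and 1.24.

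**Figure D2:**
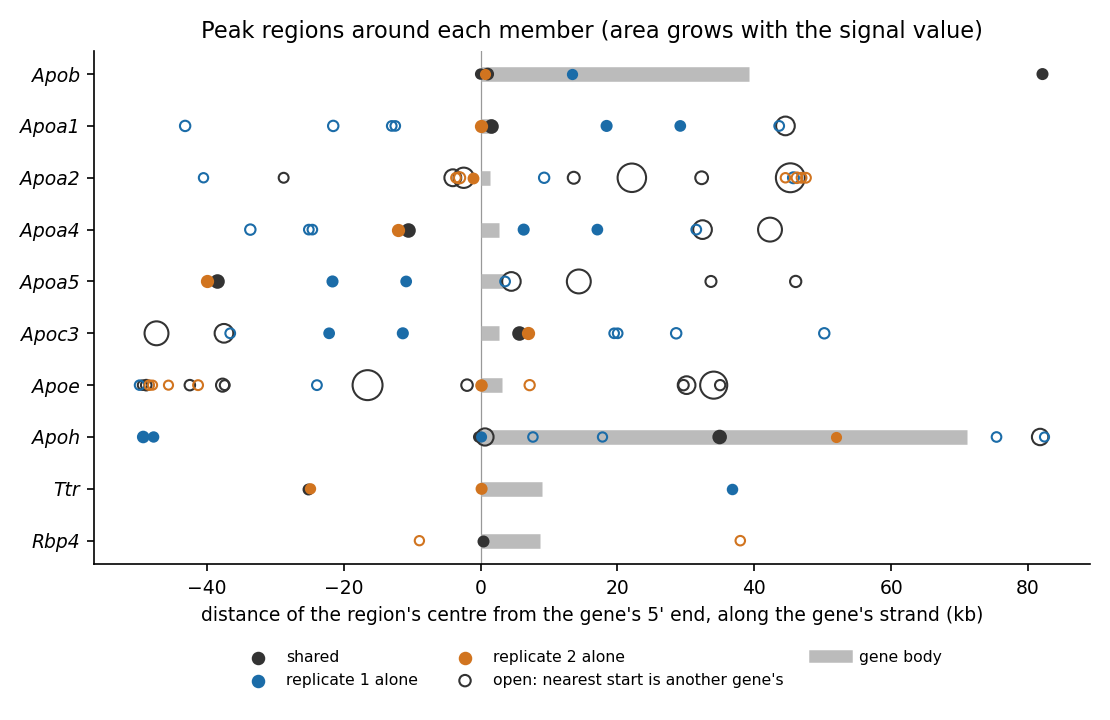
Regions around each member, placed by the distance of their centre from the gene's 5′ end along its strand (kb), with area growing with the signal value and colour showing shared or single-replicate regions. Filled symbols are nearest to a member's start, open symbols to another gene's; regions of neighbouring members appear in several lines, and the largest symbols are open.

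A shared region nearer to their own start than to any other gene's was found for 5 of 10 members, against 69.8% of all genes. The members without one were Apoa2, Apoa4, Apoa5, Apoc3 and Apoe. Shared distal regions, over 1 kb from every protein-coding start, numbered 16 around the members, with a median of 1.00 and a mean of 1.90 per gene. All genes had a median of 2.00 and a mean of 2.41. Apoe had 7, of which 4 lay in introns of Nectin2, a neighbour that encodes a cell adhesion protein, and Rbp4 had 0.

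The replicates were not equally high at the members. The log2 ratio of replicate 2 to replicate 1 was centred so that its median over all shared regions is 0; before centring this median was -0.19. The centred ratio was above 0 in 7 of the 8 own shared regions, with a median of 0.81 and a range of -0.09 to 1.40. It was above 0 in 7 of the 24 shared regions of neighbours, with a median of -0.25 and a range of -1.18 to 0.53. Over all shared regions the 5th and 95th percentiles were -1.04 and 0.87. Of the own regions, 4 exceeded the latter, the starts of Apob, Apoh and Rbp4 and the distal region of Apob.

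**Figure D3:**
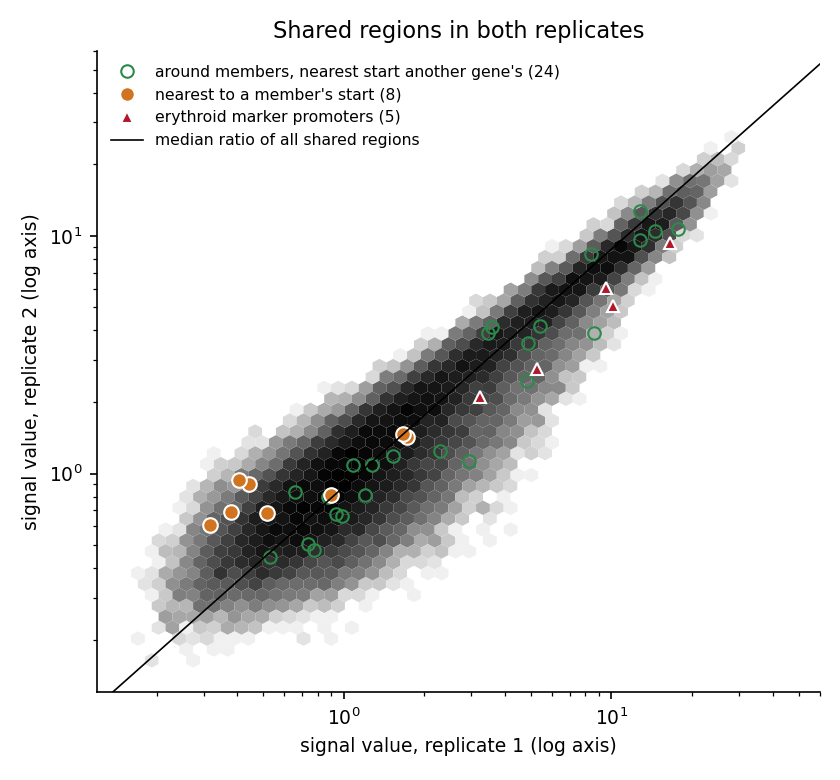
Signal values of all 45831 shared regions in replicate 1 and replicate 2 (log axes, grey density), with the 8 own regions of members (orange), the 24 of neighbours (green) and 5 erythroid marker promoters (red triangles). The line is the median ratio; 5 orange points lie well above it and 3 close to it, while all triangles lie below.

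Part of this pattern goes with the level in replicate 1. The 5 own regions with the lowest replicate 1 values, 0.316 to 0.519, had centred ratios of 0.58 to 1.40. All 4275 shared regions in that range had a median of 0.46, a 75th percentile of 0.79 and a 90th percentile of 1.10. The other 3 own regions, in the Apoa1 exon and the Apob and Apoh introns, had replicate 1 values of 0.899 to 1.73 and centred ratios of -0.09 to 0.05. Shared regions in that range had a median of -0.01.

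Promoters of cell type markers had the following centred ratios. All 5 erythroid promoters lay below 0, from -0.81 at Slc4a1 to -0.44 at Gata1, with replicate 1 values of 3.24 to 16.5. The hepatoblast promoters Afp and Trf had 0.21 and 0.29, while Alb, a hepatoblast marker too, had its promoter peak in replicate 1 alone, at 0.367. Foxa3, a further hepatoblast marker that was counted with the liver transcription regulators, had -0.41. The endothelial marker Kdr had 0.43, and the stellate cell markers Reln and Lrat had 0.53 and 0.75, above the values of Afp and Trf. The part of cell composition, and of the larger recovered counts of replicate 2, in the members' ratios was not tested.

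**Figure D4:**
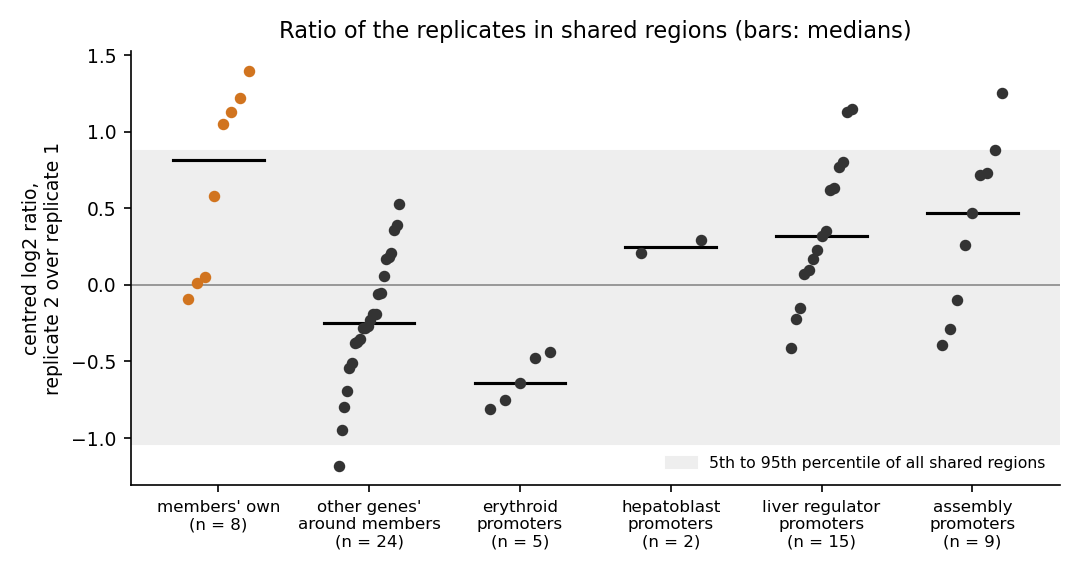
Centred log2 ratio of replicate 2 to replicate 1 in shared regions, by class, with 1 point per region or promoter, bars at medians and the 5th to 95th percentile of all shared regions in grey. The members' own regions have a median of 0.81, the erythroid promoters of -0.64.

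Footprints per region were fewer at the members than at their neighbours. The 8 own shared regions held 14 footprints in replicate 1 and 25 in replicate 2. Of the 14, 7 were overlapped by one of replicate 2, for which 1 bp sufficed. These 7 lay in 4 regions, the Apoa1 exon, the Apob and Apoh introns and the Rbp4 start. Of the neighbours' 24 regions 18 held such a footprint, of all shared regions 66.4%, and of the 25289 shared regions within the members' range of replicate 1 values 48.3%. The share at the members was thus close to that of regions of like signal. In the Apoh intron, a footprint of 46 bp in replicate 2 spanned footprints of 28 and 15 bp in replicate 1. In the Apob intron, the 27 bp footprint of replicate 2 and the 13 bp footprint of replicate 1 began at the same base. At the start of Apob replicate 2 had 5 footprints and replicate 1 none.

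Genes that act on the members' products were compared by their promoters, for which the share of all genes, 58.4%, is the background. Of 13 other apolipoprotein and related genes, 3 had a shared promoter region, Apol6, Apobec1 and Clu. Apobec1, which edits Apob messenger RNA, had 3.35 and 2.31. Of 15 genes of lipoprotein assembly and remodelling, 9 had one. Mttp, which loads lipid onto Apob, had 13.1 and 10.7, and the protein disulfide isomerase P4hb, the other subunit of that transfer protein, had 18.9 and 13.5. Lpl, the lipase of peripheral tissues, was the lowest with 0.354 and 0.742.

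Of 13 lipoprotein receptor and cholesterol transporter genes, 9 had a shared promoter region. Scarb1, the receptor for high-density lipoprotein, had 9.08 and 8.81, and Npc1, which moves cholesterol out of lysosomes, had 20.9 and 16.1. Of 17 genes of retinol and thyroid hormone handling, 7 had one, with Rdh11 at 4.63 and 2.84 and Rdh10 at 4.61 and 4.21 the highest in replicate 1. Stra6, the Rbp4 receptor, and Serpina7, a thyroxine carrier, had no promoter peak in either replicate. The promoters of Mttp, P4hb, Npc1 and Scarb1 were each higher than any of the members' own shared regions in both replicates.

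Of 23 genes of liver transcription regulators, 15 had a shared promoter region. Foxa3 had 12.0 and 7.93, Nr1h3, an oxysterol receptor, 8.14 and 8.39, and Cebpa 2.84 and 3.11. Hnf4a, a regulator of many apolipoprotein genes, had a promoter peak in replicate 2 alone, at 0.404. The centred ratio was above 0 at 12 of the 15, with a median of 0.32.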

How the data were processed

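DNase-seq of 2 replicates of embryonic liver was analysed from the deposited peaks, FDR stretches and footprints. Per the file headers and notes, the authors made the lists of a library from that library's mm10 alignment. The aligner and callers were not given in the sources used here. The deposited peaks carry a signal value, and the deposited FDR is given per stretch of bases and listed under 0.05. Footprint lines carry a constant 0.01 and were used by position. The labels give biological replicate numbers but 1 donor label.

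The longer peak list of each library was used, and the shorter list (51901 and 46323 peaks) as an alternative. Every peak or footprint ended within its chromosome in the reference, and the RefSeq promoters of members equalled the genome at 13 of 13 places. Genes with repeated names (54) were left out. All 10 members are described, with their promoter regions and the highest other regions; related genes were counted by list and up to 4 named. Some genes and motifs are not reported here. Members and lists were chosen with earlier results of these data known. With 1 group no test between conditions exists. Merging and distances were tested on made-up peaks. Python 3.11.15, numpy 2.4.6, pandas 2.3.3, scipy 1.17.1 and statsmodels 0.14.6 were used. Promoter sequences of RefSeq were used for that build check.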

Additional observations from a re-analysis of the deposited data

How the results depend on the processing

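No paired analysis was possible because the samples form 1 group. Taking either library alone, the count of members with a promoter region ranged from 3 (without replicate 2) to 6 (without replicate 1), that of distal regions from 24 to 31, against 16 shared ones, and that of members with a low FDR at a start from 2 to 6. These single-library counts need no second peak. The shares of all genes and of all regions given above hold for the settings used there, and none is given for the settings that follow. A promoter window of 2.5 kb gave 6 members in place of 3. It added Apoa1 by its coding exon region, and Apoa2 by the Tomm40l promoter region, 2274 bp away. Apoe was added by the region 1798 bp away that was assigned to Tomm40. A distance window of 20 kb gave 5 distal regions and one of 100 kb gave 28. With peaks at or above their library's median value, the share of member regions that were shared was 67.7% in place of 43.8%, and 3 rather than 5 members had a shared region of their own; the weaker own regions fall below that value. RefSeq starts, an alternative added after the data had been seen, gave 4 members with a shared promoter region. The shorter peak list gave 2 members with one and a shared share of 45.1%. The median centred log2 ratio over the shared regions of that list was -0.10, against -0.08 over the 32 of the longer list. Requiring an overlap of 50% of the shorter peak left 3 and 5 members. In the shared regions around members, 70 footprints of replicate 1 were overlapped by one of replicate 2. Requiring the overlap to cover 50% of each footprint left 52. The median ratio without centring was -0.26. Own regions rest on counts of 25 to 244, which limits their precision.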

Other observations

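Regions of the members with a peak of only 1 replicate numbered 7 in each replicate. Of the 7 found in replicate 2 alone, 5 were within 1 kb of a member's start, at Apoa1, Apob, Apoe, Apoh and Ttr, with values from 0.344 to 1.05; of all regions of replicate 2 alone, 31.5% were within 1 kb of a protein-coding start. Of the 7 found in replicate 1 alone, 1 was within 1 kb of a start, at Apoh, with 0.329, against 17.9% of all regions of replicate 1 alone. Replicate 2 had no called peak in this Apoh region. Its lowest FDR there was 1.1e-05, against 0.0082 in replicate 1, and it had 1 footprint there. The highest of the 7 regions of replicate 1 alone had 0.823 and stood 49194 bp from the Apoh start, in an intron of Prkca. It held 3 footprints, and 77.5% of its bases are soft-masked repeats. Single-replicate regions of the whole genome had median values of 0.494 in replicate 1 and 0.392 in replicate 2. These counts were chosen after the values had been seen, and their difference was not tested.

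Introns of Sik3, a kinase gene that neighbours Apoa1, held 4 peaks of replicate 1 within 50 kb of Apoa1, with values of 0.772, 0.785, 0.532 and 0.519, and no peak of replicate 2.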
